A study of Homo sapiens with 8 samples.

Results

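The BCL2 family of apoptosis regulators was followed in RNA-sequencing libraries of the human multiple myeloma cell line LP-1 through 10 genes, BCL2, MCL1, BCL2L1, BAX, BAK1, BCL2L11, PMAIP1, BBC3, BID and BAD, picked by their symbols in the deposited gene table. All 10 were among the 18564 genes of the table, and 9 of them passed the filter on low counts. BCL2L11 did not pass and is given by its counts alone.

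The 8 libraries came from 4 conditions with 2 replicates each. WT is the parental LP-1 line, and BR is a bortezomib-resistant LP-1 culture that was kept with the proteasome inhibitor bortezomib for 2 months; whether it is a single clone is not given in the sources used here. Both were grown in RPMI-1640 with serum and received either DMSO, called vehicle here although the labels also call the WT vehicle samples untreated, or SI-2, which inhibits the transcriptional coactivator SRC-3 (NCOA3), at 25 nM for 24 hours. The comparisons ask how the resistant line differs from the parental line and what SI-2 does in each. The study describes replicates as independent experiments, but the labels name no separate cultures, so the p-values measure the spread between these libraries only. The RNA is bulk, and fewer cells of a kind cannot be told apart from less RNA per cell.

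Members of this family decide whether the outer mitochondrial membrane is breached, which releases cytochrome c and starts the caspase cascade. BCL2, MCL1 and BCL2L1 (whose long form is Bcl-xL) hold the executioners in check, BAX and BAK1 form the pores, and the BH3-only proteins BIM (BCL2L11), NOXA (PMAIP1), PUMA (BBC3), BID and BAD carry the death signal by inserting a short BH3 helix into a groove of the other members. Plasma cells are known to lean on MCL1 for survival, and NOXA, which binds MCL1, is a known responder to proteasome inhibition.

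The BH3 segment is the stretch of coding sequence that the members have in common, so it is shown for all 10. The sequences are from the GENCODE annotation on GRCh38, not from the libraries, and the deposited tables were made on hg19. For BCL2L11 the segment is from transcript NM_207003.2, which made up 3.45% of the gene's level, not from NM_138625.3, which made up 84.5%. Each is 45 bases of coding strand inside 1 coding exon, and the capitals mark the 6 codons of the BH3 core, from its leucine to its aspartate.
BCL2, chr18:63318349-63318393, minus strand, exon 1: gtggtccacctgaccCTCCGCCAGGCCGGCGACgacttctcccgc
MCL1, chr1:150578865-150578909, minus strand, exon 1: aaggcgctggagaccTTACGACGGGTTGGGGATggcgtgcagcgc
BCL2L1, chr20:31721922-31721966, minus strand, exon 2: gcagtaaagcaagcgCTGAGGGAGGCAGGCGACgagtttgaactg
BAX, chr19:48955772-48955816, plus strand, exon 3: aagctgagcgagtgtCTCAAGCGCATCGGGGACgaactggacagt
BAK1, chr6:33575387-33575431, minus strand, exon 4: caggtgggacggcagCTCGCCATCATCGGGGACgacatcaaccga
BCL2L11, chr2:111150088-111150132, plus strand, exon 3: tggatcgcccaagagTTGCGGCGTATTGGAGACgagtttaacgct
PMAIP1, chr18:59902658-59902702, plus strand, exon 2: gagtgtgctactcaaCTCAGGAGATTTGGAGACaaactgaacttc
BBC3, chr19:47226579-47226623, minus strand, exon 3: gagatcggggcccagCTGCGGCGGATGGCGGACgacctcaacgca
BID, chr22:17739415-17739459, minus strand, exon 4: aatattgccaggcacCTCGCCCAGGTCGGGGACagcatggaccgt
BAD, chr11:64271622-64271666, minus strand, exon 3: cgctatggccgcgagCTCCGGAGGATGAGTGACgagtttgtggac
Over the 45 pairs of members, between 7 and 14 of the 18 core bases were identical, with a median of 10.

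Exon junctions separate the long, protective forms of BCL2L1 and MCL1 from the short forms that are known to promote death. They are shown because reads that cross them help to tell the forms apart, as do reads inside the bases that a short form leaves out. The last 30 bases of an exon are in lower case and the first 30 of the next in capitals.
Bcl-xL, chr20, minus strand: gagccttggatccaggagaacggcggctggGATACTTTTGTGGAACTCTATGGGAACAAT
Bcl-xS, chr20, minus strand: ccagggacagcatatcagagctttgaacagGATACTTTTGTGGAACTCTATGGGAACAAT
MCL1 long form, exon 1 to 2: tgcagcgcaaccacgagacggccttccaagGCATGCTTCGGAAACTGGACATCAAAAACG
MCL1 long form, exon 2 to 3: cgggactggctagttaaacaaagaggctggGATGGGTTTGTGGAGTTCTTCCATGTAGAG
MCL1 short form, exon 1 to 3: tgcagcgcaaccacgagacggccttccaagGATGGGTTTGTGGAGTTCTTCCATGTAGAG
Bcl-xS leaves out 189 bases of coding sequence and is 170 residues long, against 233 for Bcl-xL. The short MCL1 form leaves out 248 bases and has 271 residues, against 350.

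The libraries held between 17997771 and 18570027 estimated counts each. Transcripts of 8 plasma cell markers summed to between 2190 and 3793 CPM (counts scaled to library size), while 4 B cell markers summed to at most 0.637 CPM, although the cell type label reads B lymphoblast. 1 library stood apart. In BR SI-2 replicate 2 the stromal genes COL1A1, COL1A2 and DCN summed to 69.2 CPM, against 0.167 to 0.512 in the other 7 libraries. Their part in any result was not tested. Values without that library are named only for BCL2L1 between the lines and for numbers of genes called. For some other results it is covered by ranges with each library left out in turn. T cell markers summed to at most 0.312 CPM and myeloid markers to between 2.53 and 4.94 CPM.

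Compared per transcript length, in FPKM (fragments scaled to transcript length and library size), MCL1 was by far the most abundant member, at 284 to 559 FPKM with a median of 410 over the 8 libraries. BCL2 followed at a median of 67.0 FPKM and BAX at 63.6, and their ranges overlapped. The lowest MCL1 library lay 201 FPKM above the highest BCL2 library. BAK1 (median 33.0), BAD (23.2), PMAIP1 (21.1), BCL2L1 (20.5) and BBC3 (17.1) formed a middle band in which each gene overlapped its neighbour in the order, and BAX lay above all of them without overlap. BID had a median of 12.4 FPKM, its highest library only 0.04 FPKM below the lowest BBC3 library.

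**Figure D1:**
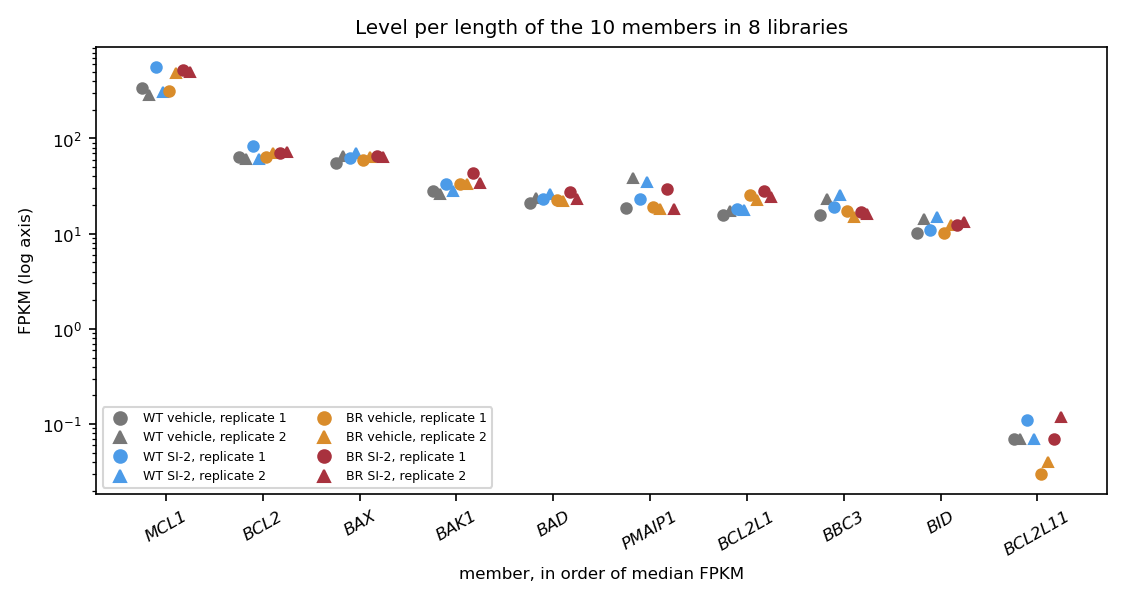
Deposited FPKM of the 10 members on a log axis, with 1 point per library. MCL1 lies between 284 and 559 FPKM, above every other member, and BCL2L11 lies between 0.03 and 0.12 FPKM.

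BCL2L11, which encodes the activator BIM, was close to absent from the table's counts. It had 6.19, 6.07, 6.93 and 6.05 estimated counts in the WT libraries and 0.76, 3.42, 6.35 and 10.89 in the BR libraries, in the order vehicle replicates 1 and 2, then SI-2 replicates 1 and 2. The BR values lie on both sides of the WT values. At counts this near the floor of 3, no fold change was calculated and no difference was detectable.

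Among the anti-apoptotic members, BCL2L1 was the only one whose BR libraries lay entirely above its WT libraries. The WT vehicle libraries had 40.9 and 46.2 CPM and the WT SI-2 libraries 47.1 and 47.4 CPM, whereas the BR vehicle libraries had 68.9 and 58.0 CPM and the BR SI-2 libraries 74.6 and 60.2 CPM. Thus every BR library was above every WT library, as was the case in 3.78% of all genes tested, and within BR both replicate 1 libraries were above both replicate 2 libraries. The difference was 1.44-fold (log2 0.53, SE 0.11, unadjusted p = 0.000458 in edgeR's quasi-likelihood test with 4 libraries each), but after adjustment over 13520 genes it did not pass, with an adjusted p of 0.0696. In this comparison 49 genes, or 0.362%, had an adjusted p under 0.05.

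The BCL2L1 difference had nearly the same size in both treatments. It was 0.54 on the log2 scale under vehicle (SE 0.17, adjusted p = 0.967 by edgeR) and 0.51 under SI-2 (SE 0.17, adjusted p = 0.998), and the interaction was -0.03 (SE 0.24). Within replicate 1 libraries BR was higher by 0.71 and within replicate 2 libraries by 0.34. Without BR SI-2 replicate 2 the log2 difference was 0.56, with an adjusted p of 0.149. The adjusted p ranged from 0.000765 to 0.236 over 17 alternative settings and passed under 4 of them, and the smallest came from DESeq2. In counts simulated for BR against WT with edgeR's estimates of spread, DESeq2 made 14.04% wrong calls against 5.77% for edgeR. These counts held only 2-fold and 4-fold changes and no treatment or replicate differences. They therefore cannot decide whether the BCL2L1 call of DESeq2 is wrong.

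MCL1, the most abundant member, did not separate the lines. WT vehicle libraries held 1375 and 1147 CPM and WT SI-2 libraries 2201 and 1272 CPM. BR vehicle libraries held 1304 and 1854 CPM and BR SI-2 libraries 2119 and 1854 CPM. The 4 highest libraries were thus 3 of BR and 1 of WT, and the groups overlapped. The mean difference of 0.25 on the log2 scale (SE 0.21, adjusted p = 0.598, edgeR) was within the spread of the libraries. By replicate number, BR minus WT was -0.07 in replicate 1 and 0.62 in replicate 2.

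The 4 libraries with high MCL1 were the same 4 in which genes of the amino acid response were low. This response, driven by the transcription factor ATF4, switches on amino acid synthesis and transport when cells are starved or stressed. The 23 genes of the list summed to 3758 to 5391 CPM in the 4 libraries with 1854 to 2201 CPM of MCL1, and to 7016 to 8639 CPM in the 4 libraries with 1147 to 1375 CPM. The split was not particular to this response. Inhibitor of apoptosis genes summed to 815 to 907 CPM in the 4 libraries with high MCL1 and to 637 to 717 CPM in the other 4. Sums of caspases and MCL1 ubiquitin enzymes were also higher there without overlap. Those of genes listed around BAX, BAK1 and BID and of transcription factors of BH3-only genes were lower. Death receptor and p53 target sums overlapped. The libraries fall into separate clusters, so no correlation was computed, and what links the measures was not tested.

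**Figure D2:**
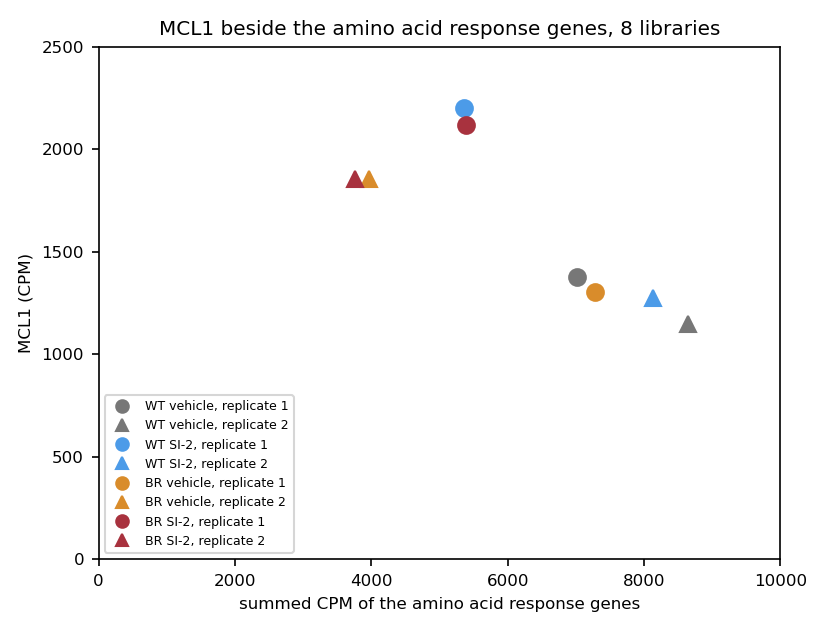
MCL1 in CPM against the summed CPM of 23 amino acid response genes, with 1 point per library marked by line, treatment and replicate. The 4 libraries with sums of 3758 to 5391 CPM have 1854 to 2201 CPM of MCL1, and the other 4 have 1147 to 1375 CPM.

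BCL2, the founding anti-apoptotic member, was level between the lines. WT libraries held 365 and 339 CPM with vehicle and 465 and 341 CPM with SI-2, and BR libraries held 369 and 386 CPM with vehicle and 407 and 388 CPM with SI-2. WT supplied both the highest and the lowest library. The log2 difference between BR and WT was 0.04 (SE 0.11, adjusted p = 0.90, edgeR), and it was below 0 in replicate 1 (-0.09) and above 0 in replicate 2 (0.19).

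The balance between anti-apoptotic members can be read as a ratio inside each library, which needs no scaling between libraries. BCL2 exceeded BCL2L1 by 3.38-fold to 4.51-fold in the WT libraries and by 2.47-fold to 3.07-fold in the BR libraries, on the FPKM scale. The ranges did not overlap. The mean log2 ratio was 1.95 ± 0.20 in WT and 1.46 ± 0.15 in BR (SD, n = 4 each), a difference of -0.49 with an exact two-sided permutation p of 0.0286, the smallest that 70 splits allow, and an adjusted p of 0.171 over 6 tests. Since BCL2 was level between the lines, this difference largely repeats that of BCL2L1 and is not a separate result. BCL2 relative to MCL1 differed by -0.26 (exact permutation p = 0.229) and MCL1 relative to BCL2L1 by -0.23 (exact permutation p = 0.486), and both ranges overlapped.

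**Figure D3:**
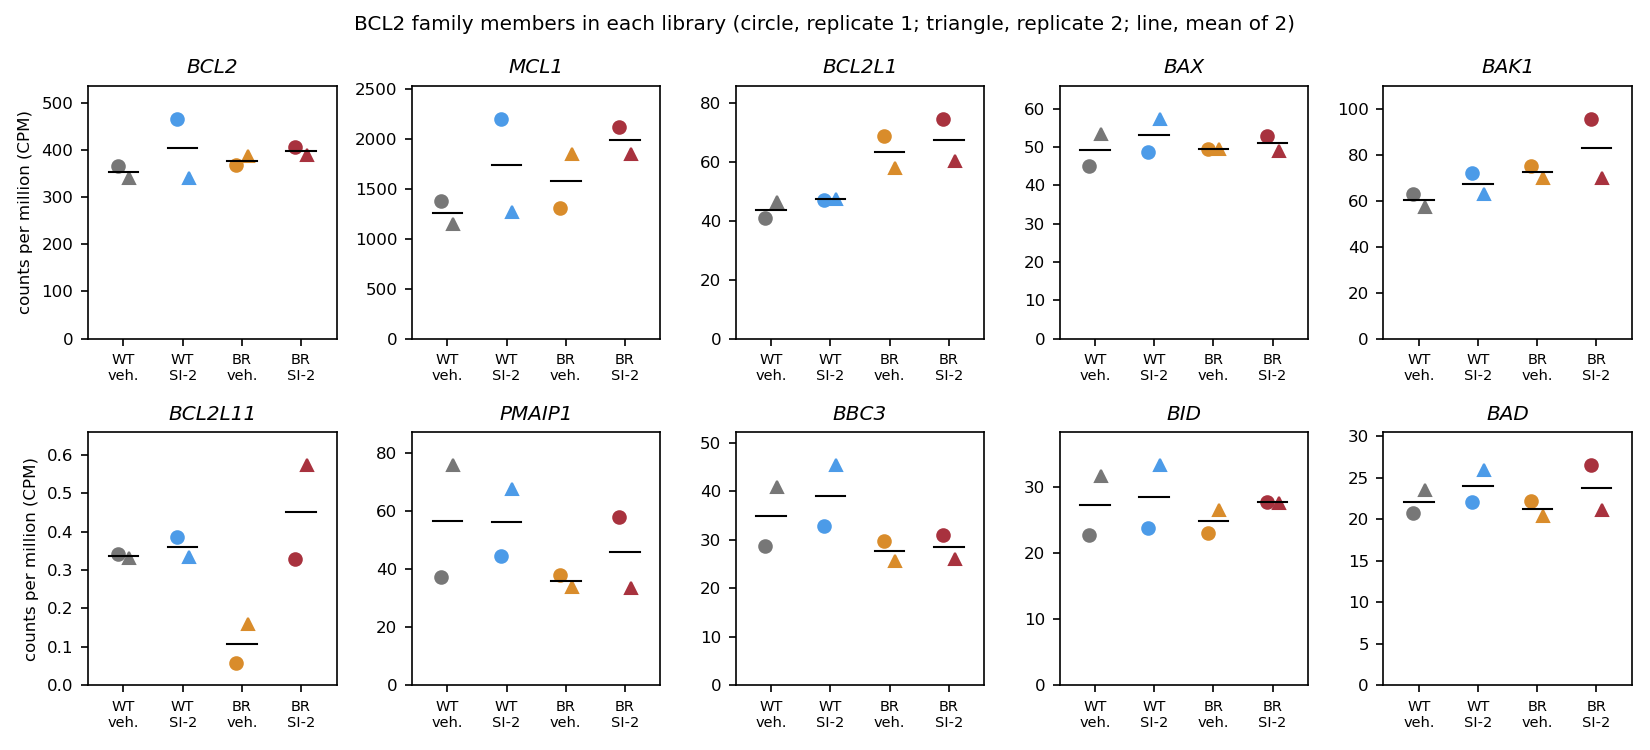
CPM of the members in each of the 8 libraries, 1 panel per gene with its own axis, grouped by line and treatment, with a line at the mean of each condition. In the BCL2L1 panel the BR libraries (58.0 to 74.6 CPM) lie above the WT libraries (40.9 to 47.4 CPM), while the lines overlap in the other panels.

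Of the pore-forming effectors, BAK1 was somewhat higher in BR and BAX was not. BAK1 had 63.0, 57.5, 72.2 and 62.9 CPM in the WT libraries and 75.5, 69.997, 95.8 and 70.1 CPM in the BR libraries. Only WT SI-2 replicate 1 reached into the BR range. The log2 difference was 0.29 (SE 0.12, unadjusted p = 0.0408), which did not pass after adjustment (0.326, edgeR), and BR was higher within both replicate numbers, by 0.33 and 0.22. BAX had 45.0 to 57.4 CPM in WT and 49.0 to 52.9 CPM in BR. The BR range of BAX lay inside the WT range, and the difference was -0.02 (SE 0.10).

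The BH3-only members that passed the filter, PMAIP1, BBC3, BID and BAD, had negative log2 differences between BR and WT, but none passed the test, and within replicate 1 only BBC3 was below 0. PMAIP1 (NOXA) had 37.2, 75.9, 44.5 and 67.9 CPM in the WT libraries and 37.9, 34.0, 58.2 and 33.4 CPM in the BR libraries. The high WT values were both of replicate 2, and the WT replicate 1 libraries lay within the BR range. The difference was -0.46 (SE 0.24, adjusted p = 0.417, edgeR), made up of 0.21 within replicate 1 and -1.09 within replicate 2.

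BBC3 (PUMA), which binds all anti-apoptotic members, had 28.8, 40.9, 32.8 and 45.4 CPM in WT and 29.7, 25.5, 30.97 and 26.0 CPM in BR. Again the replicate 2 libraries of WT were the highest, and WT vehicle replicate 1 lay inside the BR range. Its difference of -0.40 (SE 0.15) had an unadjusted p of 0.0206 and an adjusted p of 0.266 by edgeR. Within replicate 1 the lines differed by -0.02 and within replicate 2 by -0.74. BBC3 was the only member with an unadjusted p under 0.05 in the lower direction, where 8.08% of all genes were, and BCL2L1 and BAK1 were those in the higher direction, where 6.29% were.

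BID, which is cut by caspase 8 to link death receptors to mitochondria, and BAD, whose activity is set by phosphorylation, were nearly level. BID ranged from 22.7 to 33.2 CPM in WT and from 23.1 to 27.7 CPM in BR, with a difference of -0.09. BAD ranged from 20.7 to 25.9 CPM in WT and from 20.3 to 26.5 CPM in BR, with a difference of -0.03. Both were higher in BR within replicate 1, by 0.12 and 0.18, and lower within replicate 2, by 0.26 and 0.25, on the log2 scale.

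By role, the 3 anti-apoptotic members had log2 differences above 0 (median 0.25), the effectors had 1 above and 1 below, and the 4 tested BH3-only members lay below 0 (median -0.24). Over all genes 50.9% had a difference above 0. The split did not hold within both replicate numbers. In replicate 1, BCL2 (-0.09) and MCL1 (-0.07) were below 0, and PMAIP1 (0.21), BID (0.12) and BAD (0.18) above. The number of members above 0 was 4 of 9, and 3 to 6 over the alternative settings. None of the 9 members passed edgeR's adjusted threshold, 3 had an unadjusted p under 0.05 against 14.4% of all genes, and DESeq2 called 1, BCL2L1, among 399 genes (2.95%) in all. The comparisons with 2 libraries each gave no member either, with 0 genes called in all under vehicle by edgeR (540, or 3.89%, at an unadjusted p under 0.05, and 28 by DESeq2) and 1 gene, or 0.0072%, under SI-2 (568, or 4.09%, unadjusted, and 34 by DESeq2).

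**Figure D4:**
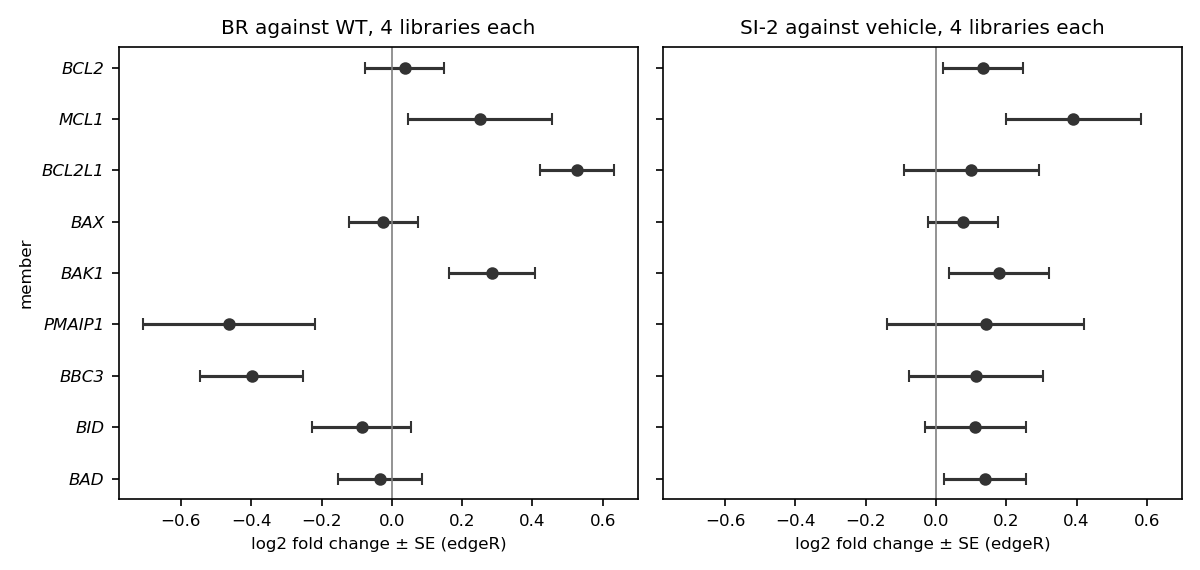
Log2 fold changes of the 9 tested members with their standard errors, for BR against WT and for SI-2 against vehicle with 4 libraries each. In BR against WT BCL2L1 is highest at 0.53 and PMAIP1 lowest at -0.46, while in SI-2 against vehicle the members lie between 0.08 and 0.39.

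No member passed the test between SI-2 and vehicle. With 4 libraries each, the log2 differences between SI-2 and vehicle ran from 0.08 for BAX to 0.39 for MCL1, and all 9 were above 0, as were 50.1% of all genes. Their median was 0.13, that of all genes 0.00035. MCL1 had a standard error of 0.19 and an adjusted p of 0.999, and BCL2 (0.13), BCL2L1 (0.10), BAK1 (0.18), PMAIP1 (0.14), BBC3 (0.11), BID (0.11) and BAD (0.14) had no unadjusted p under 0.05. edgeR called 0 of 13520 genes here (300, or 2.22%, at an unadjusted p under 0.05), and DESeq2 called 0.

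The SI-2 differences were carried mostly by the replicate 1 libraries. For MCL1, SI-2 minus vehicle was 0.69 within replicate 1 and 0.07 within replicate 2, averaged over the lines, and for PMAIP1 it was 0.44 and -0.09. The number of members above 0 was 9 of 9 in replicate 1 and 8 of 9 in replicate 2. Set against the vehicle library of the same line and number, SI-2 was higher in all 4 pairs for 6 of 9 members, BCL2, BCL2L1, BAK1, BBC3, BID and BAD, as it was for 9.92% of all genes, although the labels do not say that a shared number marks a shared experiment. By line, MCL1 differed by 0.46 in WT (SE 0.26) and by 0.33 in BR (SE 0.26), and no member was called in either (edgeR 0 genes in each, with 167, or 1.2%, in BR and 74, or 0.533%, in WT at an unadjusted p under 0.05, and 1 each by DESeq2). The difference between the lines in their SI-2 response was likewise called for 0 genes by edgeR, with 74, or 0.533%, at an unadjusted p under 0.05 and 1 by DESeq2. Without WT SI-2 replicate 2, 7 of 9 members were above 0.

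The replicate number separated no tested member without overlap. Replicate 2 against replicate 1, with 4 libraries each, gave 125 called genes (0.925%, and 16.9% at an unadjusted p under 0.05). No member was among them, and BID had the smallest p of the members, with a difference of 0.29 (unadjusted p = 0.0247, adjusted p = 0.216, edgeR). Another BH3-only gene, BMF, which senses cytoskeletal stress, was called, with 87.3, 114.7, 103.9 and 106.7 CPM in the replicate 1 libraries and 229.8, 227.1, 154.9 and 139.9 CPM in the replicate 2 libraries. Each replicate 2 library was above each replicate 1 library, as in 5.91% of genes tested. Its log2 difference was 0.87 (SE 0.17, adjusted p = 0.0476, edgeR), and the call did not hold when any 1 library was left out. BIK, a BH3-only gene with 10 to 38 estimated counts, was also higher in replicate 2 without overlap but was not called. It had 0.569 to 1.21 CPM in replicate 1 and 1.38 to 1.98 CPM in replicate 2. Of the cell type markers, CD38 was called in the same comparison, with a difference of -0.68 (adjusted p = 0.0375).

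Of the 11 further genes of the family, 7 could be tested between the lines and none passed. HRK, a BH3-only gene known from neurons, had 16.6, 32.4, 11.7 and 28.2 CPM in WT and 21.2, 7.16, 8.72 and 7.85 CPM in BR. The groups overlapped through BR vehicle replicate 1 alone. The difference was -0.99 (SE 0.39, adjusted p = 0.296, edgeR), with -0.03 within replicate 1 and -2.01 within replicate 2. BCL2L15 (-0.49), BMF (-0.38) and BCL2L2 (-0.22) were below 0, and BIK (0.25), BCL2L12 (0.22) and BCL2L13 (0.03) above. BOK, an effector-like member with too few counts for this test, had 1.20 CPM in BR SI-2 replicate 2, the library with stromal transcripts, and 0.053 to 0.72 CPM in the others.

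Transcripts divide the members' levels, although the split between forms that share most of their bases is an estimate. BCL2 was mostly the alpha form NM_000633.2, with 74.9% to 79.5% of its FPKM over the libraries, XM_011526135.3 held 11.6% on average, and the beta form NM_000657.2 held at most 1.94%. MCL1 was mostly the long form NM_021960.4, at 65.9% to 82.7% (209 to 385 FPKM), with NM_001197320.1 at 15.1% to 32.8%. The short form NM_182763.2, with the exon 1 to 3 junction printed above, had 0.79% to 3.21% (3.89 to 10.2 FPKM). Hence NM_021960.4 was the largest of the 3 transcripts in all 8 libraries. Which form NM_001197320.1 encodes was not examined, so these shares do not set protective against death-promoting forms.

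BCL2L1 was split over 12 transcripts, and 10 of them were listed at 0 in at least 1 library. NM_138578.2, a transcript of Bcl-xL, had 10.9% to 28.6% of the gene's FPKM (1.69 to 7.25 FPKM), and the Bcl-xS transcript NM_001191.3 ranged from 0 in 3 libraries to 19.3%. Other listed transcripts can encode the long form too, so these shares do not set Bcl-xL against Bcl-xS. XR_001754364.2 had 14.3% and NM_001322242.1 14.2% on average. NM_138578.2 had a log2 difference of 0.56 between BR and WT (SE 0.35, unadjusted p = 0.153), close in size to that of the gene but with a larger error. The long MCL1 form NM_021960.4 was the only member transcript with an unadjusted p under 0.05 in either comparison, for SI-2 against vehicle (log2 0.41, SE 0.17, unadjusted p = 0.0372 by edgeR, not passing after adjustment). No transcript of a member passed the test (edgeR over 45541 transcripts, 1 called between the lines, or 0.0022%, with 1786, or 3.92%, at an unadjusted p under 0.05, and 0 for SI-2, with 755, or 1.66%, unadjusted and 120 called by DESeq2), and in simulated data the transcript test found only 24% of 4-fold changes.

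Among effectors, BAX was led by its alpha form NM_138761.3 (47.4% to 61.0%), with NM_004324.3 (beta) at 0 to 29.97%, NM_001291428.1 at 6.63% to 13.8% and NM_001291429.1 at 10.3% on average. BAK1 was 95.4% NM_001188.3. Among BH3-only members, BBC3 was shared by NM_014417.4 (46.9% to 76.3%) and NM_001127241.2 (14.7% to 48.4%), and BID (NM_001196.3, 93.7%), BAD (NM_032989.2, 94.9%) and PMAIP1 (NM_021127.2, 100%) were nearly or wholly a single transcript. The near-absent BCL2L11 was 84.5% NM_138625.3 and 12.1% XM_017003102.1.

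**Figure D5:**
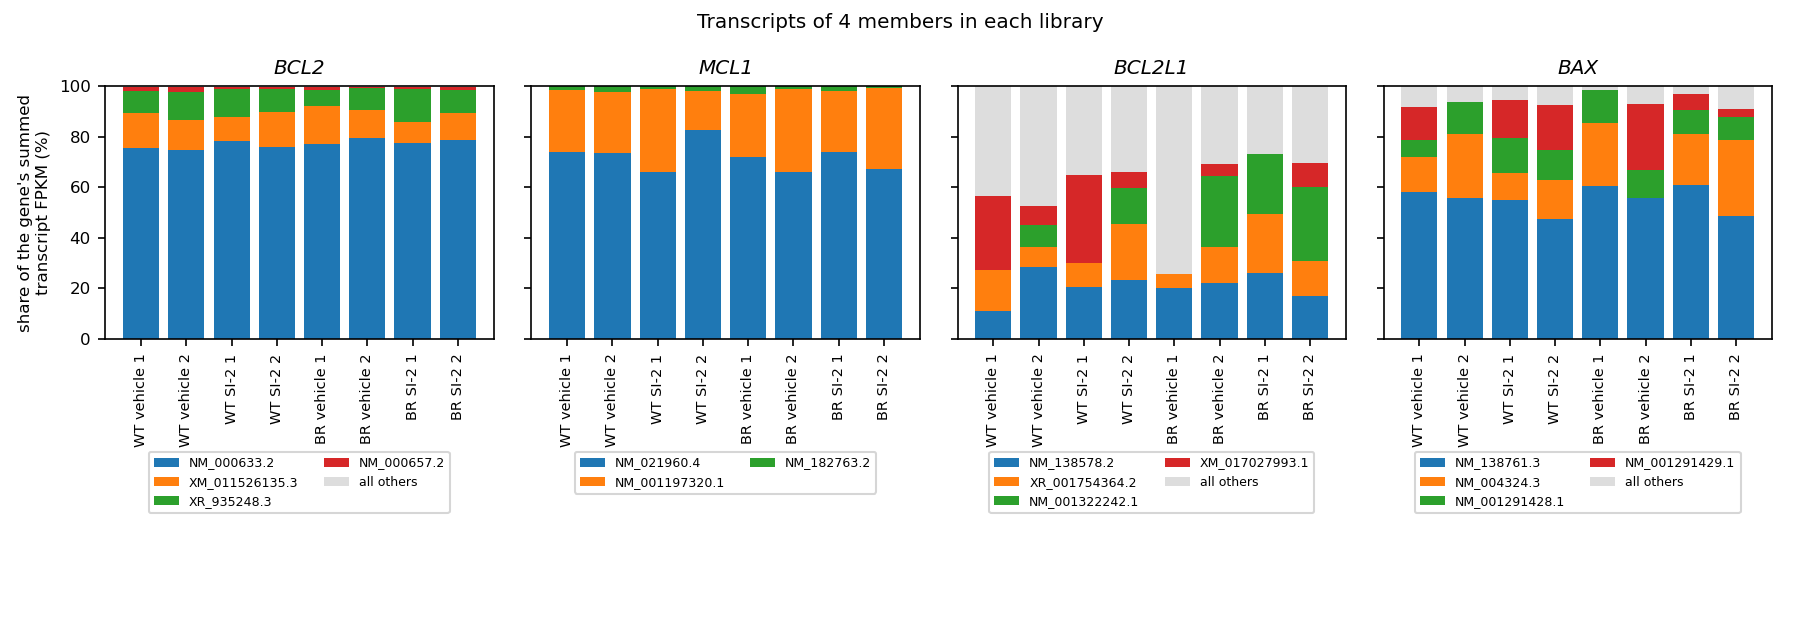
Share of each gene's summed transcript FPKM, in percent, held by its main transcripts in each of the 8 libraries, for BCL2, MCL1, BCL2L1 and BAX. The leading transcript of BCL2 keeps 74.9% to 79.5% in every library, while the shares of BCL2L1 transcripts differ widely between libraries.

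Genes upstream and downstream of the family were read between the lines from gene lists in which edgeR's adjusted threshold was passed by CDKN1A alone. CDKN1A, the cell cycle inhibitor p21, fell, with 31.9 to 38.2 CPM in BR against 61.4 to 81.0 CPM in WT (log2 -1.10, SE 0.12, adjusted p = 0.00239, edgeR). The ranges of CDKN1A did not overlap, and it passed with each library left out in turn (adjusted p from 0.000962 to 0.0145). FAS, a death receptor, had a difference of 0.52 (adjusted p = 0.158) and SESN1 one of -0.53 (0.138). Of 10 tested transcription factors known to act on BH3-only genes, 4 were above 0 and 6 below, with ATF3 at -1.35 (adjusted p = 0.224) and E2F1 at 0.30 (0.234).

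Downstream of the membrane pores, 8 of 11 caspases, apoptosome and released proteins were above 0 and 3 below (median 0.08), with CASP6 at 0.43 and CASP2 at 0.17. Of 6 inhibitor of apoptosis genes, which block caspases, 4 were above 0, with BIRC5 at 0.38, BIRC6 at 0.23 and XIAP at -0.25. In replicate 1 these 6 genes summed to 711 and 907 CPM in WT and to 717 and 896 CPM in BR, vehicle first. In replicate 2 they summed to 637 and 671 CPM in WT and to 846 and 815 CPM in BR. The caspase list summed to 957 and 1069 CPM in WT and 955 and 965 CPM in BR in replicate 1. Its replicate 2 sums were 860 and 842 CPM in WT and 974 and 984 CPM in BR. In the death receptor pathway 9 of 10 genes were below 0 (median -0.14), with TNFRSF1A at -0.63 and TNFRSF10B at -0.32, and only FAS above. None of these 27 genes passed the test.

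Of 6 genes listed around BAX, BAK1 and BID, VDAC3 (0.28) and VDAC1 (0.20) were above 0 and 4 were below, TMBIM6 among them (-0.10). Whether each listed gene binds BAX, BAK1 or BID was not examined. Among 7 ubiquitin ligases and deubiquitinases that set MCL1 protein turnover, 5 were above 0, led by MARCHF5 at 0.32, HUWE1 at 0.16 and USP9X at 0.11. Ligases and deubiquitinases act in opposite directions, so this pooled count gives no direction for MCL1 turnover. The amino acid response had the largest median of the lists in size, with 21 of 21 tested genes below 0 (median -0.49). Of these, 9 had an unadjusted p under 0.05 by edgeR, against 8.08% of all genes in the lower direction, and none was called. The genes of this list with the smallest p were TRIB3 (-0.75), SLC3A2 (-0.57) and CEBPB (-0.49). The replicate numbers differed. In replicate 1 the 23 genes summed to 7016 and 5360 CPM in WT and to 7287 and 5391 CPM in BR, vehicle first. In replicate 2 they summed to 8639 and 8139 CPM in WT and to 3967 and 3758 CPM in BR.

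Genes whose log2 CPM followed a member over the 8 libraries are given as a description, since all genes share these libraries and their scaling. For BCL2L1 the nearest of 9358 genes were XPO1 (Pearson r 0.983), PUM2 (0.981) and PRR14L (0.961), and 27 genes had an r above 0.9. MCL1 had many more, 343, with TAF2 (0.992), ZNF408 (0.991) and YTHDF3 (0.991) nearest. BCL2 was nearest to ZDHHC6 (0.970), RBM18 (0.964) and ATP7A (0.961), with 65 above 0.9. PMAIP1, the member that varied most (SD 0.466 of log2 CPM, against 0.106 for BAX), was nearest to DCUN1D3 (0.981), BACH1 (0.980) and PLPP1 (0.979), with 88.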

How the data were processed

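RNA was measured in 8 BGISEQ-500 libraries. The authors removed low-quality reads, and the submitters' processing notes name BWA, Bowtie2, RSEM and hg19, with no versions; the annotation is not given in the sources used here. The deposited tables hold estimated counts per gene and per transcript, which need not be whole. The same deposited tables hold FPKM, the authors' values scaled to length and library size. Their 8 average columns per table, and their own comparison tables with fold changes and DEGseq p-values, were not used. Dates had replaced 25 gene symbols.

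Estimated counts were rounded and tested with edgeR 4.0.16 (quasi-likelihood, TMM, filterByExpr) in R 4.3.3, with Benjamini-Hochberg adjustment over all features tested and a threshold of 0.05. Comparisons of lines, treatments or replicate numbers used 4 against 4 libraries, and those within a condition a fit of 4 conditions with 1 shared spread (biological coefficient of variation 0.179). CPM were TMM-scaled. Estimated counts of 6 of the 10 members were whole in every library. Ratios of FPKM were compared by exact permutation tests. Alternatives were other scalings and filters, DESeq2 1.42.0, limma 3.58.1 on log2(FPKM + 1) and log2(FPKM + 0.1), the replicate number as a term, and leaving out each library. On simulated counts of BR against WT over 13428 genes, edgeR found 96% of 2-fold and 100% of 4-fold changes. On simulated counts of SI-2 against vehicle in BR over 13780 genes it found 56% and 99%, and over 38830 transcripts of BR against WT 4% and 24%. The changed features were drawn only from those above a minimum mean CPM, so these shares do not cover features with low counts. Counts were simulated with edgeR's own estimates of spread.

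The members and lists were chosen with earlier results of these data known. Named were all members, the other family genes, in each list the called genes and the 3 smallest p, the 3 genes most like a member by Pearson r at a mean CPM of at least 10, and transcripts with at least 10% of a gene's FPKM; a few more were named after their values were seen (the beta form of BCL2 and the short forms of MCL1 and BCL2L1). Sequences were read from the GENCODE v29 annotation of GRCh38, and no coordinates were converted. Some listed genes are not reported here.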

Additional observations from a re-analysis of the deposited data

Results flagged for a closer look

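In 36 groups of 4 libraries tested, chance flags about 1 in 20, and 3 had a lone library by Dixon's ratio of gap to range. In the WT libraries BCL2L1 was flagged at 0.830, barely past the critical value, with WT vehicle replicate 1 at 40.9 CPM and the others at 46.2 to 47.4 CPM. In the BR libraries BAX was flagged at 0.849, with BR SI-2 replicate 1 at 52.9 CPM and the others at 49.0 to 49.6 CPM. In the vehicle libraries PMAIP1 was flagged at 0.867, with WT vehicle replicate 2 at 75.9 CPM and the others at 34.0 to 37.9 CPM.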

How the results depend on the processing

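Of 1176 values recomputed under alternatives, 22 changed sign, all in differences close to 0 or in the BCL2/BCL2L1 ratio under SI-2. BAX in BR against WT was 0.0055 scaled by library size, 0.0045 by limma on log2(FPKM + 1) and 0.0046 by limma on log2(FPKM + 0.1), and BAD was 0.0045 and 0.0047 by limma in the same order. Leaving out each library, BR against WT ranged from -0.011 to 0.15 for BCL2, -0.12 to 0.028 for BAD, -0.080 to 0.037 for BAX, -0.17 to 0.011 for BID, -0.052 to 0.070 for BCL2L13 and -0.023 to 0.31 for CD38. SI-2 against vehicle ranged from -0.051 to 0.24 for BCL2L1, -0.034 to 0.48 for PMAIP1 and -0.065 to 0.27 for BBC3, and from -0.14 to 0.13 for log2(BCL2/BCL2L1).

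BCL2L1 kept its direction in BR against WT under all 17 alternatives (0.46 to 0.58) and passed under library-size scaling (adjusted p = 0.0463), limma on log2(FPKM + 0.1) (0.0498) and DESeq2 (0.000765). DESeq2 alone of the tools also called FAS, SESN1, TRIB3 and SLC3A2, and TRIB3 passed in edgeR without WT SI-2 replicate 1.

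The numbers of genes called moved more. DESeq2 called 399 genes in BR against WT, 28 under vehicle, 34 under SI-2, 1 for the interaction and 1 for SI-2 within each line, 740 for the replicate number, and 359 and 120 transcripts for the lines and SI-2. Under vehicle, upper-quartile scaling and the CPM filter each called 1, no filter 3, limma 1 and 4 at pseudocounts of 1 and 0.1. Under SI-2, limma called 0 at both. For the replicate number, upper-quartile scaling called 196, limma 62 and 56, and condition terms 0, and these called 18 for BR against WT. Without a filter 0 transcripts were called for the lines and 1 for SI-2. Leaving out each library gave 21 to 125 genes in BR against WT (21 without WT SI-2 replicate 2, 24 without BR vehicle replicate 2, 27 without WT vehicle replicate 2, 29 and 32 without BR SI-2 replicates 1 and 2, 86 without BR vehicle replicate 1, 125 without WT SI-2 replicate 1), 0 to 67 under SI-2 and 0 to 67 for SI-2 in BR (67 in both without BR SI-2 replicate 1), 0 to 93 for the replicate number (93 without WT SI-2 replicate 1) and 0 transcripts. The causes were not tested, and a condition left with 1 library was assumed to vary like the others.

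Replicate numbers are shared across conditions without a stated batch, and deviations of same-numbered libraries correlated between -0.12 and 0.44. With the replicate block, 155 genes were called in BR against WT, 1 under vehicle and 0 transcripts, and BCL2L1 stood at 0.52 (adjusted p = 0.0465). No member was called for SI-2 against vehicle with the block (adjusted p from 0.952 to 0.964).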
